A study of Mus musculus with 40 samples.

Results

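The miR-17 to 92 miRNAs and their relatives from paralogous clusters were followed in small RNA libraries of the mouse hippocampus. The set was chosen by name and holds 10 of the 1978 mature miRNAs counted in these libraries: mmu-miR-17-5p, mmu-miR-18a-5p, mmu-miR-19a-3p, mmu-miR-19b-3p, mmu-miR-20a-5p, mmu-miR-92a-3p, mmu-miR-92b-3p, mmu-miR-25-3p, mmu-miR-93-5p and mmu-miR-106b-5p, written without the species prefix from here on. The tissue was the CA1 region of 40 mice, male and female, on a C57Bl/6J background, with 1 library per mouse. CaMKIIδC transgenic (TG) mice, a model of heart failure, were compared with wild-type (WT) littermates at 2 ages, 3 and 6 months. The groups were 9 TG and 5 WT mice at 3 months, and 11 TG and 15 WT mice at 6 months. Batch, the sex of single mice and the promoter of the transgene are not given in the sources used here. For 3-month WT mice 1 and 2 the title gives WT and the genotype field gives TG. The titles were followed, and results were also computed without these mice.

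A miRNA is cut from a hairpin, and either arm, 5p or 3p, can yield a mature strand of about the length of the sequences printed here. Its seed, bases 2 to 8, sets most of its pairing with target mRNAs, so that miRNAs with a shared seed can share targets. The miR-17 to 92 transcript is known for its part in cell proliferation and survival, including that of neural progenitors, and has relatives that arose by duplication. The hairpins of a cluster are made from 1 transcript, but each is cut and each strand is kept or lost on its own.

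The sequences are shown because the set falls into 4 seed families that do not follow the chromosomes. RefSeq sequences were found for 10 of the 10 miRNAs, and positions are those of GRCm38.p6. Capitals mark the seed, and all sequences run from 5′ to 3′.

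The AAAGUGC family holds miR-17-5p and miR-20a-5p of chromosome 14 and miR-93-5p and miR-106b-5p of chromosome 5.
miR-17-5p: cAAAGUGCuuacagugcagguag
miR-20a-5p: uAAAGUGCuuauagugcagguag
miR-93-5p: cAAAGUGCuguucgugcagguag
miR-106b-5p: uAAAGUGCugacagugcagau

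The seed of miR-18a-5p, from chromosome 14, differs from it at a single base and stands alone in the set.
miR-18a-5p: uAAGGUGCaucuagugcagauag

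The GUGCAAA family holds the miR-19 pair, which differ by U11C, counted from 1 at the 5′ end with the base of miR-19a-3p given before the position.
miR-19a-3p: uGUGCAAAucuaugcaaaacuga
miR-19b-3p: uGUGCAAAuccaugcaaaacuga

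The AUUGCAC family joins members from chromosomes 14, 3 and 5. Relative to miR-92a-3p, miR-92b-3p has U10C and G21C, and miR-25-3p has U1C, C14U and C18U over the 21 bases compared.
miR-92a-3p: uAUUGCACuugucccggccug
miR-92b-3p: uAUUGCACucgucccggccucc
miR-25-3p: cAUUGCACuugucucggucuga

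The hairpins Mir17, Mir18, Mir19a, Mir20a, Mir19b-1 and Mir92-1 lie in that order on the plus strand at chr14:115043671-115044506, within an exon of the long noncoding RNA gene Mir17hg (ENSMUSG00000089726). Mir106b, Mir93 and Mir25 lie on the minus strand at chr5:138165321-138165818, in an intron of Mcm7 (ENSMUSG00000029730), which encodes a subunit of the DNA replication helicase. Mir92b lies by itself on the minus strand at chr3:89227116-89227198.

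A further cluster on the X chromosome, at chrX:52741693-52742567, holds hairpins for the same miR-19b-3p and miR-92a-3p, so that these could come from either locus. Its own products were close to absent. Over all 40 libraries miR-106a-5p, which differs from miR-17-5p by U10A alone, had 143 counts against 10505 for miR-17-5p. Counts were 210 for miR-20b-5p, 10 for miR-18b-5p and 416 for miR-363-3p, and 0 for the other arms miR-19b-2-5p and miR-92a-2-5p. For miR-92a-3p the deposited table has an entry per precursor, with 207044 counts on mir-92a-1 of chromosome 14 and 31462 on mir-92a-2 of the X chromosome. The mature strand is followed by UUGA in the chromosome 14 hairpin and by AGGA in the X hairpin, so only reads that run past the mature end can be assigned. Reads that end within it fit both hairpins and may be counted on both entries. Read lengths were not examined, so the X entry does not give the output of the X locus. In each library the X entry held 6.21% to 19.1% of the count on the chromosome 14 entry, with a median of 14.6%. For miR-19b-3p the totals were nearly equal, 4081 on mir-19b-2 and 4069 on mir-19b-1, and the locus cannot be told from them. For each miRNA the entry with the higher total was used.

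Library depth ranged from 1926108 to 22892729 miRNA counts. All 4 libraries under 5000000 were from 6-month-old mice, 2 TG and 2 WT. The median total count of a library was 29499287 in 3-month and 13894826 in 6-month TG mice, and 22455957 and 14908612 in WT mice. Depth was thus mostly lower at 6 months in both genotypes, with ranges that overlapped. Levels are CPM, each count as a share of its library total, scaled between libraries by the trimmed mean of M values (TMM). On this scale 3 counts, taken as the limit that a count of 0 allows, equalled 0.0956 to 2.32 CPM. A level can thus only be read against the rest of its library, and the ligation of adapters differs between miRNAs. Markers of neurons (5 of 5 detected, summed level 166000 to 365000 CPM) dominated the marker lists, and markers of oligodendrocytes, endothelium, choroid plexus, erythroid cells, leukocytes with microglia, and striated muscle were also present.

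The 10 miRNAs spanned more than 3 orders of magnitude and made up a small share of each library. Together they held 0.171% to 0.329% of the miRNA counts, with a median of 0.231%. Of their joint counts the AUUGCAC family held 83.6% to 98.8% and the AAAGUGC family 1.13% to 15.6%. The miR-19 pair held at most 0.879% and miR-18a-5p at most 0.0501%. By locus, Mir92b alone held a median of 55.6% and up to 68.5%. The chromosome 14 and chromosome 5 clusters held 15.9% to 28.1% and 12.9% to 29.6%. Here miR-19b-3p and miR-92a-3p were counted to chromosome 14, though they could also come from the X chromosome.

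miR-92b-3p was the highest, with a lowest, median and highest level over the 40 mice of 822.5, 1246 and 3577 CPM, and ranked 72 of 1978 by its median. It lay above each of the other 9 in 40 of 40 mice. miR-25-3p followed with 303, 419 and 790 CPM and miR-92a-3p with 273, 394 and 971 CPM. The order of this pair is not settled, since miR-25-3p was above miR-92a-3p in 25 of 40 mice.

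The AAAGUGC family came next. miR-93-5p had 22.5, 82.7 and 149.0 CPM, miR-20a-5p 6.20, 31.2 and 70.6 CPM, miR-17-5p 4.06, 17.3 and 33.3 CPM, and miR-106b-5p 3.50, 12.9 and 34.1 CPM. miR-20a-5p was above its cluster mate miR-17-5p in 39 of 40 mice, and miR-17-5p was above miR-106b-5p in 31 of 40.

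miR-19b-3p had 1.01, 6.54 and 15.1 CPM and miR-19a-3p 0, 1.23 and 3.04 CPM, with miR-19b-3p higher in 39 of 40 mice. miR-18a-5p was at the limit of detection, with 212 counts in all libraries together and a median of 0.345 CPM. It was at or under 3 counts in 4 of 9 and 1 of 5 mice at 3 months (TG and WT) and in 8 of 11 and 7 of 15 at 6 months, so no fold change is given for it. The 6 miRNAs encoded in the chromosome 14 transcript thus covered levels from miR-18a-5p to miR-92a-3p, which may in part come from the X chromosome. miR-92a-3p was above miR-20a-5p, the next highest of this cluster, in 40 of 40 mice.

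**Figure D1:**
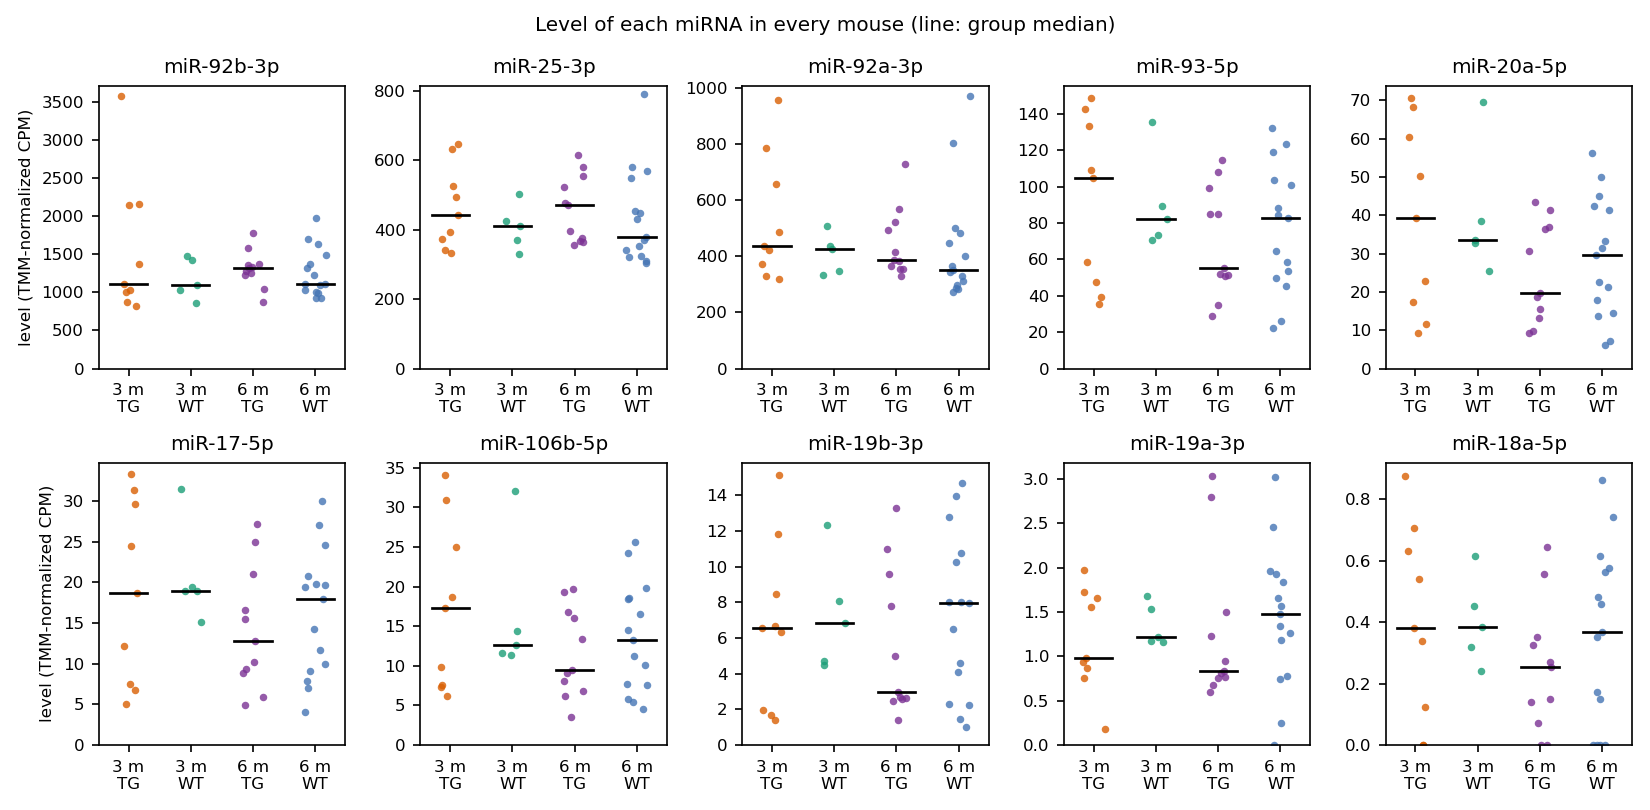
Level of each of the 10 miRNAs in every mouse (y axis, TMM-normalized CPM, a separate linear scale from 0 in each panel), grouped by age in months and genotype, with the group median as a line. The 4 groups overlap in all panels, and miR-20a-5p spans 6.20 to 70.6 CPM while miR-25-3p spans 303 to 790 CPM.

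Within groups the mice differed widely, and the miRNAs of the set did so as 2 opposed blocks. Among 3-month WT mice 1 to 5, miR-20a-5p was at 25.3, 69.6, 33.7, 38.4 and 32.9 CPM. In the same mice miR-92b-3p was at 1034, 857, 1423, 1479 and 1104 CPM. Mouse 2 had the highest miR-20a-5p and the lowest miR-92b-3p of the 5. To test this over all mice, log2 CPM was centred on the mean of each group, and each pair of miRNAs was correlated over the 40 mice with mice permuted within groups (100000 resamples, Benjamini-Hochberg adjustment over 45 pairs).

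All 45 pairs passed an adjusted p of 0.05, and the largest adjusted p of Pearson's r was 0.0083. The 3 AUUGCAC miRNAs rose and fell together, with r of 0.63 to 0.928. The other 7 did the same, with r of 0.446 to 0.969 over 21 pairs. All 21 pairs that join the 2 blocks were negative, with r of -0.896 to -0.494. The sign was the same in 45 of 45 pairs after the 2 mice farthest from the median of the x variable were left out. It was also the same in each of the 3 groups with at least 6 mice in 41 of 45 pairs. r over the pairs with miR-18a-5p and miR-19a-3p rests on few counts, and in 6-month TG mice r between these 2 was -0.057.

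The blocks cut across the genomic clusters. With miR-19b-3p and miR-92a-3p again counted to chromosome 14, 18 pairs were of the same cluster, 11 positive and 7 negative. miR-17-5p and miR-92a-3p, from the first and the last hairpin of the chromosome 14 cluster, had r = -0.841 (Spearman's rho -0.788, adjusted p 1.73e-05, permutation test, and r = -0.798 without the 2 farthest mice). miR-25-3p and miR-93-5p, neighbours in the Mcm7 intron, had r = -0.861 (rho -0.814, adjusted p 1.73e-05, permutation test, and r = -0.835 without 2 mice). In contrast, miR-92a-3p of chromosome 14 and miR-25-3p of chromosome 5 had r = 0.928 (rho 0.918, adjusted p 1.73e-05, permutation test, and r = 0.915 without 2 mice). miR-20a-5p and miR-93-5p, also of different chromosomes, had r = 0.969 (rho 0.963, adjusted p 1.73e-05, permutation test, and r = 0.96 without 2 mice). The 10 pairs with a shared seed were all positive. An adjusted p of 1.73e-05 stands for the smallest p that the resamples can give, 1e-05.

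**Figure D2:**
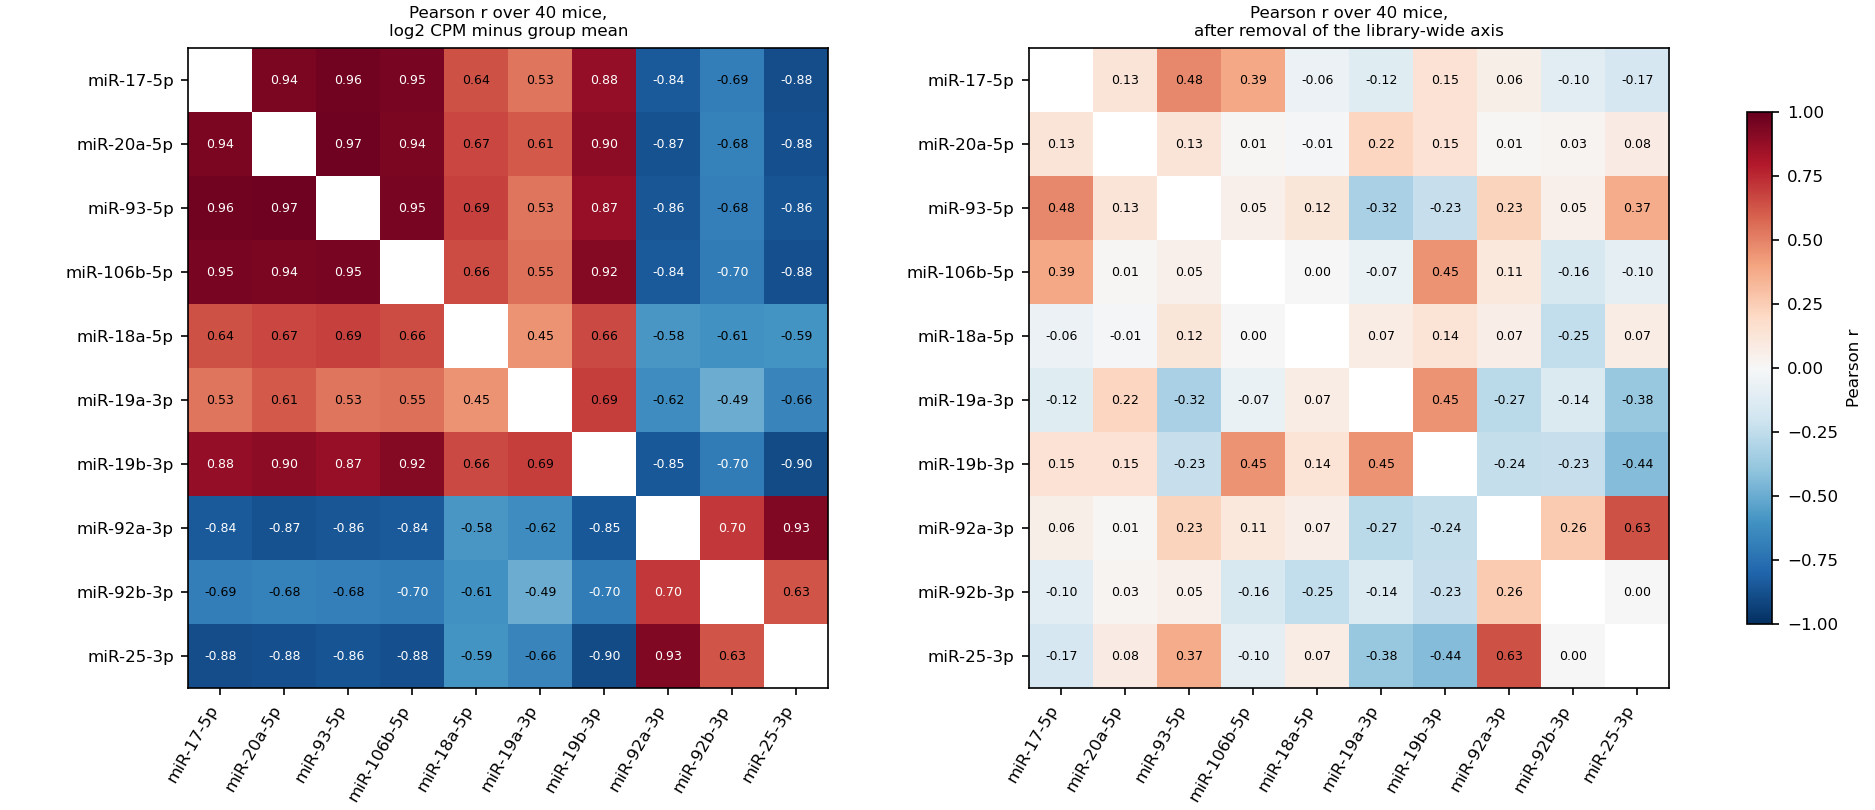
Pearson r between each pair of the 10 miRNAs over 40 mice, from log2 CPM minus the group mean (left) and after the library-wide axis of the other miRNAs was also removed (right), on a colour scale from -1 to 1. On the left miR-92a-3p, miR-92b-3p and miR-25-3p are positive with each other and negative with the other 7 (-0.896 to -0.494), and on the right the values lie between -0.437 and 0.634.

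The same division ran through the other miRNAs of these libraries. A principal component was taken of the within-group variation of the 333 miRNAs that averaged 10 CPM or more and were not on any list used here. This library-wide axis held 70.0% of their within-group variance, against 5.27% for the next component. It split the 333 miRNAs evenly, with 165 above and 168 below 0, a median absolute r of 0.779, 10.8% with r over 0.9 and 16.2% with r under -0.9. Variation along this axis was thus common to most miRNAs of these libraries.

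On this axis miR-93-5p had r = 0.984 (rho 0.977), miR-20a-5p 0.980 (rho 0.979), miR-106b-5p 0.961 (rho 0.978), miR-17-5p 0.955 (rho 0.961) and miR-19b-3p 0.902 (rho 0.907). miR-18a-5p and miR-19a-3p had 0.682 and 0.589. miR-25-3p had r = -0.904 (rho -0.865), miR-92a-3p -0.889 (rho -0.838) and miR-92b-3p -0.697 (rho -0.637). The largest adjusted p among the 10 was 0.000229, for miR-19a-3p (permutation test within groups, 24 relations with the axis). Without the 2 farthest mice r of the 10 kept its sign and was between 0.542 and 0.981 or between -0.904 and -0.663.

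Depth and base composition moved with the axis as well. The log2 of a library's miRNA count had r = 0.726 with it (adjusted p 1.5e-05, permutation test), and 0.575 without the 4 libraries under 5000000. Across 312 of 361 miRNAs with a sequence (86.4%), GC content and r with the axis had a Spearman's rho of -0.316. In the set GC content was 57.1% for miR-92a-3p, 63.6% for miR-92b-3p and 50.0% for miR-25-3p, and 34.8% to 52.2% for the other 7. The share of miR-92a-3p counts on the X entry relative to the chromosome 14 entry had r = 0.893 with the axis (adjusted p 1.5e-05, permutation test). The part of depth, base composition and RNA quality in the axis was not tested.

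Once the axis was removed from each miRNA, the median absolute r over the 45 pairs went from 0.701 to 0.139, and 1 of 45 pairs passed. That pair was miR-92a-3p with miR-25-3p, at r = 0.634. The next highest was miR-17-5p with miR-93-5p, at 0.48.

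**Figure D3:**
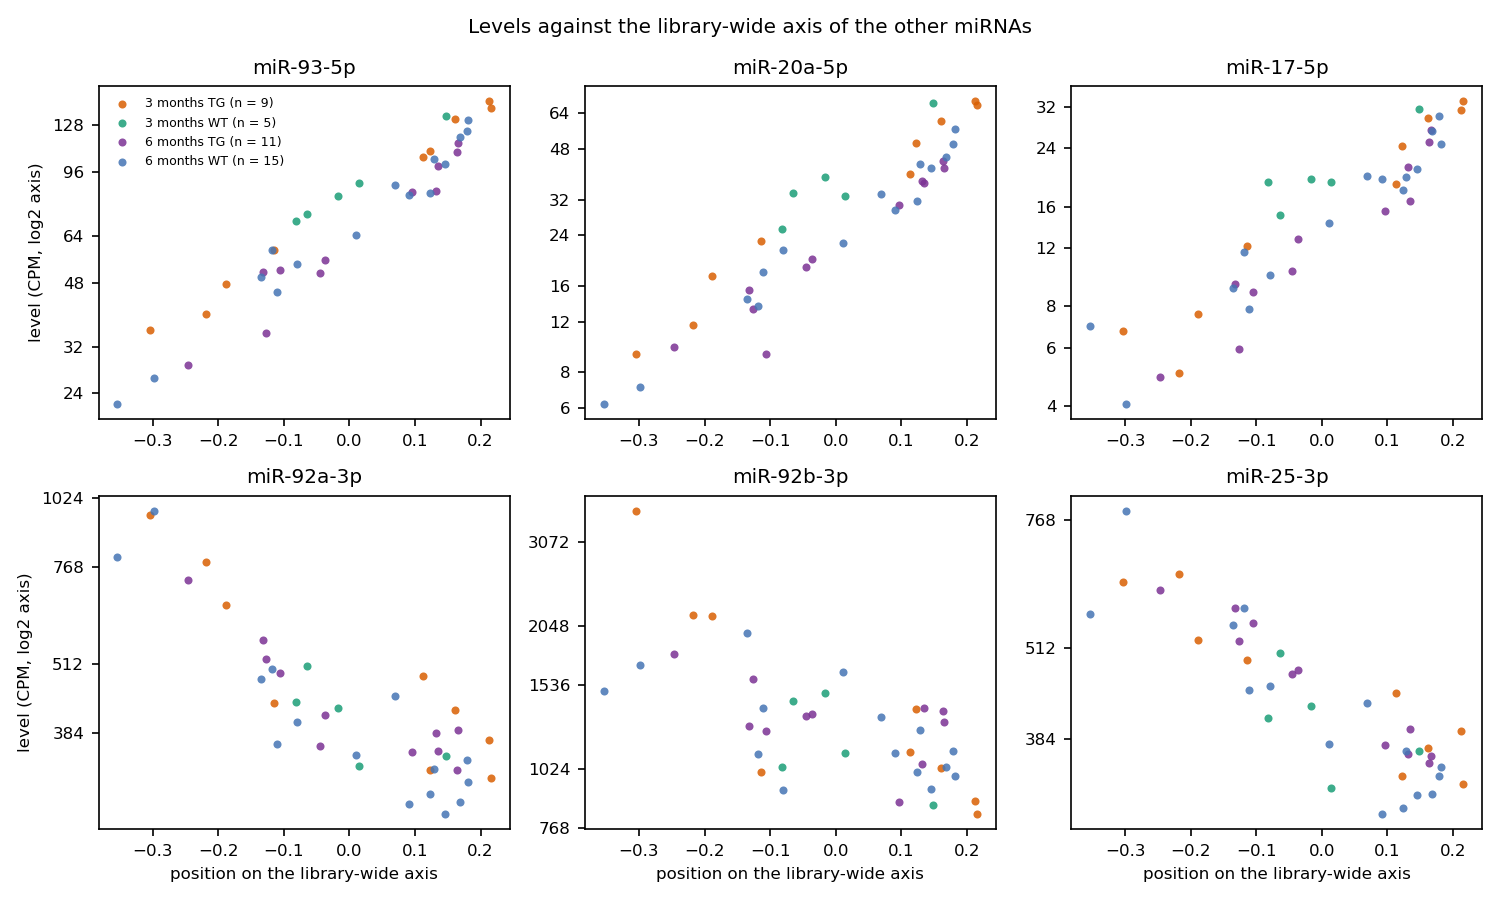
Level of 6 of the 10 miRNAs (y axis, CPM on a log2 scale) against the position of each library on the library-wide axis made from 333 other miRNAs (x axis, no unit, group means removed), with a point per mouse coloured by group. miR-93-5p, miR-20a-5p and miR-17-5p rise along the axis (r 0.955 to 0.984) and miR-92a-3p, miR-92b-3p and miR-25-3p fall (r -0.904 to -0.697).

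The miRNAs most like the set in this variation were sought among the 333. For miR-93-5p, the highest member of its family, these were miR-30b-5p (r = 0.978), miR-16-5p (0.973) and miR-484 (0.963). For miR-19b-3p they were miR-335-5p (0.911), miR-384-3p and miR-186-5p (0.907 each). After removal of the axis these 6 values were 0.133 to 0.439. For miR-92b-3p they were miR-139-3p (0.872), miR-423-5p (0.871) and miR-125a-3p (0.867), and here r without the axis was 0.732, 0.756 and 0.786. For miR-18a-5p no r was above 0.724. These values describe likeness over the 40 mice and are given without a test.

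The arms of the hairpins were compared because a ratio within a library does not depend on the scaling between libraries. Over all libraries the 5p arm held 99.7% of the counts of Mir20a, 97.5% of Mir93 and 94.4% of Mir17. It held 0.0304% of Mir92-1, 0.272% of Mir19a, 0.411% of Mir25 and 2.16% of Mir92b, so that in these the 3p arm was dominant. Mir18 gave 212 counts from the 5p and 240 from the 3p arm.

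Mir106b stood apart because the listed miRNA is its minor strand by a wide margin, where the arms of Mir18 were near equal. miR-106b-5p had 9065 counts against 82216 for miR-106b-3p, or 9.93% of both, and this share ran from 0.615% to 27.6% between libraries.
miR-106b-3p: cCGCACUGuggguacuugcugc

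The arms of Mir106b moved in opposite directions between mice. In 3-month WT mice 1 to 5, miR-106b-5p was at 12.6, 32.1, 11.6, 11.3 and 14.3 CPM and miR-106b-3p at 199, 93.8, 182, 145.0 and 112 CPM. The mouse with the most 5p strand had the least 3p strand. miR-106b-3p had r = -0.975 with the library-wide axis (rho -0.948) against 0.961 for miR-106b-5p, and the log2 ratio of 5p to 3p had r = 0.984 (rho 0.986, adjusted p 1.5e-05, permutation test, and 0.988 without the 2 farthest mice). For Mir25 r of this ratio was 0.73, for Mir93 -0.445, for Mir92b -0.541 and for Mir17 -0.074 (adjusted p 0.655, permutation test). Whether this difference between arms arises in the tissue or in the making of the library was not tested.

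**Figure D4:**
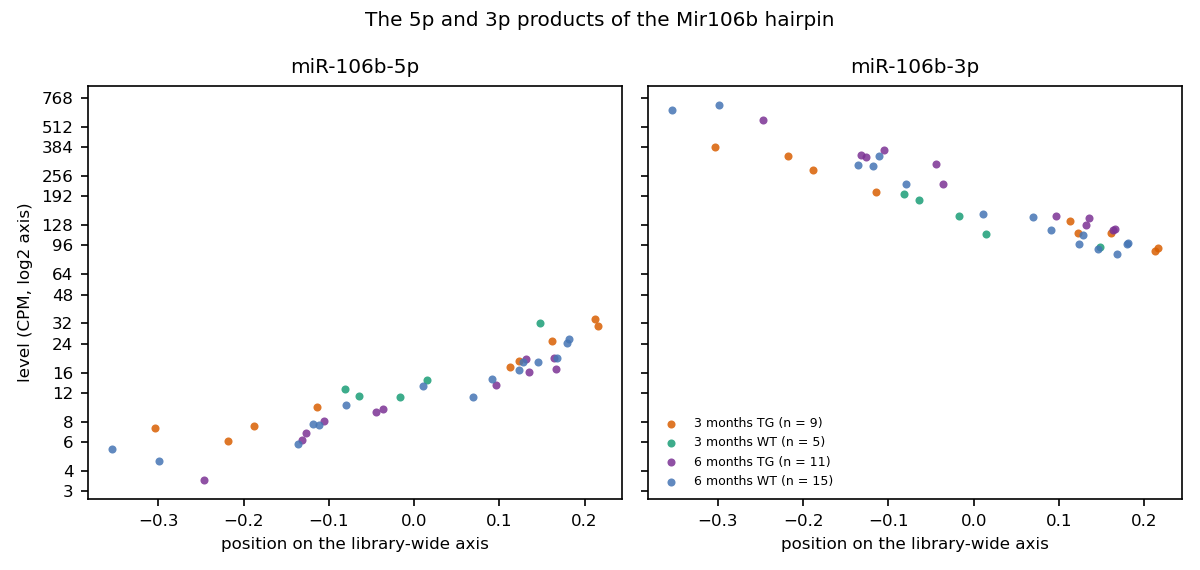
Levels of miR-106b-5p (left) and miR-106b-3p (right) in each mouse (y axis, CPM on a log2 scale shared by both panels) against the position of the library on the library-wide axis (x axis, no unit, group means removed). The 5p strand rises (r 0.961) and the 3p strand falls (r -0.975) along the axis.

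Whether the ages differed in arm use was tested for the 5 hairpins with at least 10 counts per library on average from each arm, in TG and in WT mice. None of the 10 differences passed the adjustment (exact permutation test over mice, two-sided, smallest adjusted p 0.203), and 2 of the 10 had an unadjusted p under 0.05, both for Mir93. The log2 ratio of 5p to 3p of Mir93 was 5.38 ± 0.558 (SD, n = 9) at 3 months and 6.05 ± 0.742 (n = 11) at 6 months in TG mice, a difference of 0.667 (exact permutation p 0.0406, adjusted 0.203). In WT mice it was 5.10 ± 0.447 (n = 5) and 5.79 ± 0.566 (n = 15), a difference of 0.686 (exact permutation p 0.0248, adjusted 0.203). The ratio of Mir93 rests on few counts of miR-93-3p, with a median of 19 over the 40 libraries. It had 0 counts in 6-month WT mice 4 and 5 and 1 count each in 6-month TG mice 8 and 9. The ratio of Mir106b was lower at 6 months by 0.878 in TG and 0.678 in WT mice, within its spread of 1.02 to 1.78 (SD).

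The age comparison asks how the hippocampus of TG mice differs between 3 months and 6 months, with WT mice as the reference for age alone. A miRNA was called where the adjusted p of edgeR was under 0.05 and its log2FC was above 0.26 or below -0.26. In TG mice 9 of the 10 miRNAs passed the filter on low counts and none was called, where 15.7% of the 629 miRNAs tested were, 8.27% lower and 7.47% higher. Spike-in entries were tested in the same way, apart from the miRNAs. Of these 8 of 42 were called in TG mice (3 higher, 5 lower) and 0 of 45 in WT mice. What this means for the miRNA calls was not tested. The 9 log2FC (6 over 3 months) ran from -0.62 to 0.01 with a median of -0.235, against -0.088 over all miRNAs. No member had an unadjusted p under 0.05, where 204 of the 629 miRNAs did, and DESeq2 called no member.

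The AAAGUGC miRNAs had the lowest values. miR-20a-5p had a lowest, median and highest level of 9.24, 39.4 and 70.6 CPM in 3-month and 9.27, 19.8 and 43.6 CPM in 6-month TG mice. Its log2FC was -0.62 (SE 0.374, edgeR adjusted p 0.248), with an interval of -1.352 to 0.114. miR-106b-5p had 6.13, 17.3 and 34.1 CPM and then 3.50, 9.50 and 19.7 CPM (log2FC -0.55, SE 0.337, edgeR adjusted p 0.251). The groups overlapped over most of their range in both.

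miR-93-5p had 35.7, 105 and 149.0 CPM and then 28.7, 55.3 and 115 CPM (log2FC -0.38, SE 0.299, edgeR adjusted p 0.38). miR-17-5p had 5.03, 18.7 and 33.3 CPM and then 4.90, 12.8 and 27.3 CPM (log2FC -0.37, SE 0.357, edgeR adjusted p 0.486). These values too overlapped between the ages.

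Of the AUUGCAC miRNAs, miR-25-3p had 333, 444 and 647 CPM at 3 months and 356, 472 and 616 CPM at 6 months in TG mice, with a log2FC of 0.01 (SE 0.158, interval -0.298 to 0.321). miR-92a-3p and miR-92b-3p both had a log2FC of -0.23 (SE 0.208 and 0.232, edgeR adjusted p 0.451 and 0.496). Both are among the miRNAs that the study singled out from libraries of this series, with TG group sizes other than those of the titles followed here. In miR-92b-3p the 3-month TG values were 823, 1110 and 3577 CPM, with mouse 3 at the top, and 873, 1322 and 1784 CPM at 6 months. The miR-19 pair had log2FC of -0.23 (miR-19b-3p, SE 0.437) and -0.06 (miR-19a-3p, SE 0.332).

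In WT mice none of 9 was called, where 0.152% of 660 were, a single miRNA. The 9 log2FC ran from -0.47 to 0.19 with a median of 0.028, against -0.019 over all. Here too no member had an unadjusted p under 0.05, where 102 of the 660 miRNAs did, and DESeq2 called no member. In 3-month WT mice 1 to 5, miR-93-5p was at 70.6, 136, 73.5, 82.5 and 89.4 CPM and miR-17-5p at 18.97, 31.5, 15.1, 19.4 and 18.9 CPM. In 6-month WT mice the lowest, median and highest were 22.5, 82.9 and 132 CPM for miR-93-5p and 4.06, 17.9 and 30.0 CPM for miR-17-5p. Mouse 2 stood above the other 4 in both, and the log2FC were -0.23 (SE 0.315, edgeR adjusted p 0.751) and -0.35 (SE 0.321, edgeR adjusted p 0.614). For miR-20a-5p, at 6.20, 29.5 and 56.3 CPM in 6-month WT mice, the log2FC was -0.47 (SE 0.373, edgeR adjusted p 0.564).

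Of 20 other products of these clusters, 6 could be tested at both ages in either genotype and none was called. The lowest adjusted p was that of miR-93-3p in TG mice (log2FC -1.12, SE 0.445, edgeR adjusted p 0.0878). Per-miRNA permutation tests of the mean log2 CPM gave no adjusted p under 0.05 for the 10 miRNAs in the 4 comparisons of age and genotype (exact, or 100000 resamples where both groups had 10 mice or more, smallest p 0.183, smallest adjusted p 0.882 over 40 tests).

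Scores on the library-wide axis overlapped between the ages. In TG mice the lowest, median and highest score were -0.79, 0.44 and 0.74 at 3 months and -0.86, -0.24 and 0.36 at 6 months. In WT mice they were -0.01, 0.18 and 0.67 and then -1.09, 0.16 and 0.49. The difference in score between the ages was not tested. Across miRNAs, r with the axis and the log2FC between the ages had a correlation of -0.371 in TG and -0.554 in WT mice. Markers of several cell types were called in TG mice, with 3 of 5 erythroid (1 higher, 2 lower), 2 of 4 choroid plexus (both higher), 2 of 3 oligodendrocyte (both lower) and 1 of 5 neuronal miRNAs (higher) called, besides 1 of 2 endothelial (higher), 1 of 4 leukocyte and microglia (lower) and 1 of 2 striated muscle miRNAs tested (lower). No marker was called in WT mice by the same fit. Their part in the values of the set was not tested. In bulk tissue fewer cells of a type and less RNA per cell cannot be told apart.

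The study's methods remove unwanted variance with RUVSeq. A fit with 1 factor estimated from the residuals (RUVr), which takes up variation shared by many miRNAs, narrowed the intervals and raised the number of calls. The residuals were those left after age was fitted. A shift along the library-wide axis between the ages need not be removed by the factor, and calls may still hold it. With this fit 46.6% of 629 miRNAs were called in TG mice and 28.8% of 660 in WT mice, so that a call was common. Cell type markers were now called in WT mice too. These were 3 of 5 neuronal (2 higher, 1 lower) and 2 of 5 erythroid miRNAs (1 higher, 1 lower). A further 1 of 4 leukocyte and microglia and 1 of 2 endothelial miRNAs were called, both lower. No choroid plexus, oligodendrocyte or striated muscle marker was called there. In TG mice 3 of 9 members were called, all lower at 6 months, where 21.5% of all miRNAs tested were called lower. These were miR-20a-5p (log2FC -0.43, SE 0.108, edgeR adjusted p 0.00193), miR-106b-5p (-0.39, SE 0.109, edgeR adjusted p 0.00448) and miR-93-5p (-0.26, SE 0.0922, edgeR adjusted p 0.0211).

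In WT mice 4 of 9 were called, all lower, where 16.2% of all were called lower. They were miR-20a-5p (-0.65, SE 0.118, edgeR adjusted p 0.000257), miR-17-5p (-0.52, SE 0.131, edgeR adjusted p 0.00455), miR-106b-5p (-0.39, SE 0.13, edgeR adjusted p 0.0252) and miR-93-5p (-0.36, SE 0.104, edgeR adjusted p 0.0107). All members called in these fits were of the AAAGUGC family, while miR-19a-3p, miR-19b-3p and the 3 AUUGCAC members had no call in either genotype and miR-18a-5p was not tested. The other arms moved apart, with miR-106b-3p higher by 0.39 in TG and 0.35 in WT mice (edgeR adjusted p 0.00358 and 0.0206) and miR-93-3p lower (log2FC -0.88 and -1.07, edgeR adjusted p 0.00161 and 0.00129). miR-32-5p, which has the AUUGCAC seed but another locus, was lower in TG mice (log2FC -0.64, edgeR adjusted p 0.000553).

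The calls depended on the libraries. miR-20a-5p in WT mice was called when any of the 20 mice was left out (log2FC -0.81 to -0.43), without the 4 shallow libraries (-0.38) and without 3-month WT mice 1 and 2 (-0.56). In TG mice it was called in 20 of 20 such fits but not without the shallow libraries (log2FC -0.24, edgeR adjusted p 0.0981). Without the shallow libraries miR-92a-3p was the only member called in TG mice (log2FC -0.31, edgeR adjusted p 0.0157). Without 3-month WT mouse 2, miR-20a-5p was the only member called in WT mice, and miR-106b-5p had a log2FC of -0.09 (edgeR adjusted p 0.741). Without 3-month TG mouse 6, miR-20a-5p was the only one called in TG mice. miR-93-5p was called in 9 of 20 fits that left out a mouse in TG and in 17 of 20 in WT mice, and miR-93-3p in 20 of 20 in both. The fit treats the factor as known, so its errors leave out the error of the factor itself.

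**Figure D5:**
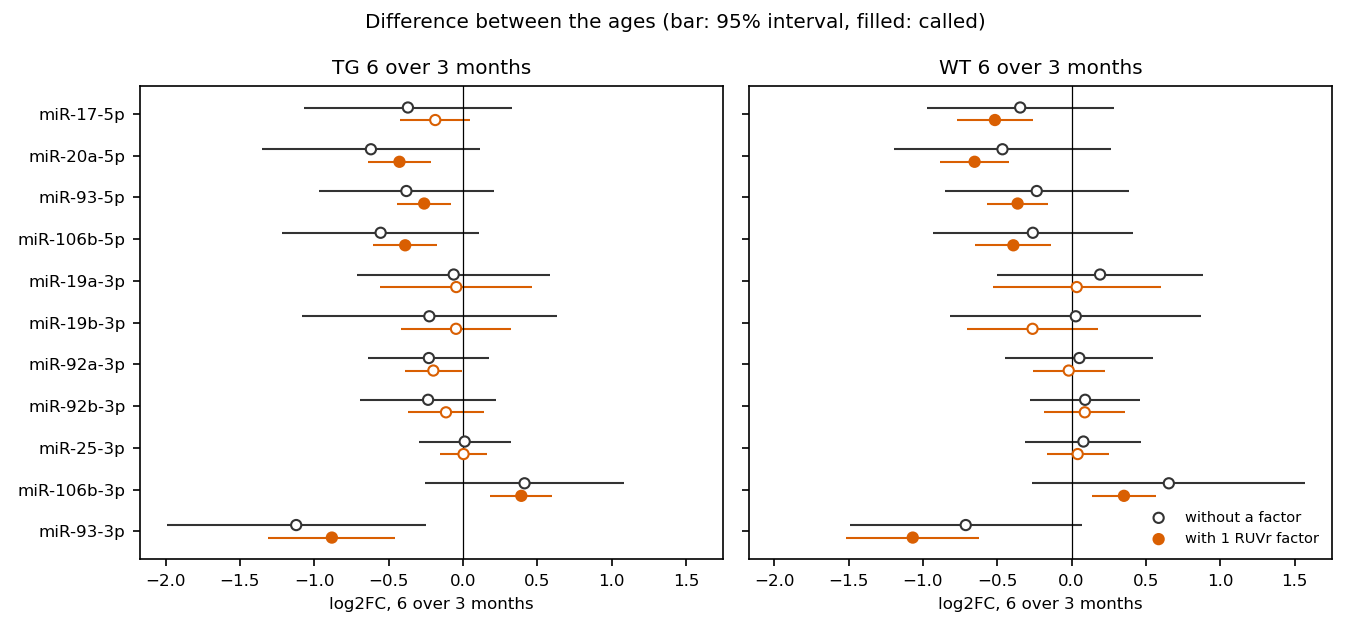
Log2FC of 6 over 3 months (x axis) in TG (left) and WT mice (right) for the 9 miRNAs of the set that were tested and for miR-106b-3p and miR-93-3p, from edgeR without a factor (black) and with 1 RUVr factor (orange), with 95% intervals as bars and filled points for calls. No black point is filled, and with the factor the filled points of the set are miR-20a-5p, miR-93-5p and miR-106b-5p in both genotypes and miR-17-5p in WT mice.

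TG and WT mice were compared at each age, which asks what the transgene changes. These comparisons share their mice with the age comparisons. At 3 months none of the 10 was called, nor was any of 695 miRNAs (0% called by edgeR, 7 with an unadjusted p under 0.05 and 0 called by DESeq2). This was without a factor, and DESeq2 with 2 RUVr factors called 5 of the 10, where it called 87 of 695 miRNAs. Without a factor the log2FC of the 10 (TG over WT) ran from -0.15 to 0.33, with a median of -0.007 against 0.038 over all. The highest were miR-92b-3p (0.33, SE 0.299) and miR-92a-3p (0.30, SE 0.242). At 6 months 9 could be tested and none was called, nor was any of 612 (0% by edgeR, 3 with an unadjusted p under 0.05 and 0 called by DESeq2). Their log2FC ran from -0.40, for miR-19a-3p (SE 0.308), to 0.07, for miR-25-3p (SE 0.157), with a median of -0.188 against -0.012. For miR-25-3p the interval at 6 months was -0.238 to 0.377, and for miR-19b-3p it was -1.103 to 0.339, so that differences within these intervals cannot be told from 0 here.

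Whether the age difference itself differed between TG and WT mice was tested as an interaction. None of 9 was called, nor was any of 699 (0% by edgeR, 14 with an unadjusted p under 0.05 and 0 called by DESeq2). The 9 estimates (TG minus WT) were all below 0, from -0.35 to -0.04 with a median of -0.266 against -0.099 over all miRNAs, and the lowest adjusted p was 0.986 (edgeR). With 1 RUVr factor 4 were above and 5 below 0. Without a factor no member had an unadjusted p under 0.05 in either genotype comparison or in the interaction. With 1 RUVr factor 4 of 10 did at 3 months, where 101 of the 695 miRNAs tested did. The median log2FC of the 10 was then -0.207, against -0.046 over all, and the smallest edgeR adjusted p was 0.252. No member did at 6 months or in the interaction with this factor, where 68 of 612 and 39 of 699 miRNAs did. The p-values of the comparisons set a difference against the spread between mice of these groups. In the fits with a RUVr factor this spread lacks the part that the factor takes up.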

How the data were processed

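Small RNA was sequenced from the hippocampal CA1 region of 40 mice with a ligation-based kit and 300 ng of RNA. The authors converted the reads with bcl2fastq (2.20.2), checked them with FastQC (0.11.5), trimmed adapters with cutadapt (2.8 per the submitters' processing notes), and aligned and counted them with mirdeep2 and miRBase. The authors deposited the raw count of every mature miRNA on every precursor (2128 pairs), besides 52 spike-in entries. They also deposited RPM values, which were checked to equal each count scaled to the library total within 0.005. Total counts were 2656368 to 36547011 per library, and no libraries were identical.

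For each of 1978 mature miRNAs the precursor with the highest total was used. Comparisons were fitted on their own groups in edgeR (4.0.16, R 4.3.3) with filterByExpr (minimum count 10, minimum total 15), TMM and the robust quasi-likelihood F test (p adjusted by Benjamini-Hochberg over all miRNAs tested). Intervals are 95% and given for the log2 fold change (log2FC). Correlations used log2 CPM with a prior count of 2, centred on group means, and the library-wide axis is the first principal component of the other miRNAs. Its scores by group were taken without centring on groups. Arm ratios used counts plus 0.5. DESeq2 (1.42.0), RUVr factors, limma (3.58.1) on log2 of the deposited RPM plus a pseudocount, other scalings, no filter, a joint fit, and fits without single mice or without the 4 shallow libraries were alternatives, the last chosen after seeing the data, as were the fits that combine a RUVr factor with left-out libraries. Permutation tests were run in scipy (1.17.1).

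Counts were first simulated for each miRNA on its own, without the library-wide axis and without a RUVr factor in the fit. For TG mice (629 miRNAs) edgeR recovered 24 of 65 miRNAs changed by a log2FC of 0.58, 53 of 67 changed by 1 and 66 of 68 changed by 2. For WT mice (660 miRNAs) it recovered 19 of 80, 32 of 50 and 70 of 70. For TG against WT mice at 6 months (612 miRNAs) it recovered 38 of 71, 55 of 61 and 67 of 68. At 3 months (695 miRNAs) these were 8 of 57, 35 of 74 and 65 of 69. In the interaction (699 miRNAs) they were 11 of 66, 39 of 74 and 55 of 60. Changes of 0.58 would thus mostly be missed in the age comparisons of both genotypes, between the genotypes at 3 months and in the interaction. On counts simulated with such an axis, 28 of 67 changes of 0.58 were recovered in TG mice without a factor and 61 of 67 with 1 RUVr factor. In WT mice 13 of 66 and 37 of 66 were. Unchanged miRNAs called were 1 and 7 in TG and 0 and 2 in WT mice. That simulation held no shift along the axis between the ages. The miRNAs named are the 10 members, products of the same clusters, miRNAs with a shared seed, and for each family the 3 miRNAs most like its highest member. Members, lists and tests were chosen with earlier results of these data known.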

Additional observations from a re-analysis of the deposited data

Results flagged for a closer look

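Of 30 checks for a sample far from the others of its group, made over the 10 miRNAs and the arm ratios of 5 hairpins in the groups of 4 to 10 mice, 6 found one, where chance gives about 1 in 20. The checks are not independent, since the members vary together along the library-wide axis, so this count cannot be set against that rate. In 3-month WT mouse 2, whose genotype field differs from its title, miR-17-5p was at 31.5 CPM (next highest 19.4), miR-93-5p at 136 CPM (next 89.4) and miR-106b-5p at 32.1 CPM (next 14.3). In 3-month TG mouse 3, miR-92b-3p was at 3577 CPM, with the next highest at 2162 CPM. The log2 ratio of 5p to 3p of Mir17 was 6.27 in the same mouse (next 4.68). In 3-month WT mouse 5 this ratio was 2.88, with the next lowest at 4.03.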

How the results depend on the processing

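The replicate numbers do not pair the mice by any source, and same-numbered mice did not deviate together throughout (mean r 0.226 in TG and 0.0351 in WT mice between the ages). A replicate block gave 5 called members and 250 called miRNAs in WT mice between the ages, 0 called members in TG mice, and log2FC of -1.02 for miR-19a-3p and -1.72 for miR-19b-3p in WT and 0.03 for miR-92b-3p in TG mice.

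No member was called between the ages in either genotype by DESeq2 without factors, by limma, with other size factors except total count scaling, without the filter or with any TG or 3-month WT mouse left out. Total count scaling called 1 member in TG mice (miR-92a-3p, log2FC -0.39). With RUVr factors the members called were 3 in TG and 4 in WT mice by edgeR with 1 factor and by DESeq2 with 1 or 2. The calls of all miRNAs were 293, 302 and 312 in TG and 190, 205 and 219 in WT mice. In WT mice they were 15 by DESeq2, 2 with total counts, 0 with upper-quartile factors or limma and 0 to 4 with a mouse left out. DESeq2 with 1 and 2 factors called 7 and 87 miRNAs between the genotypes at 3 months, 3 and 4 at 6 months and, with 2, 5 in the interaction, and 5 members at 3 months with 2 factors.

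With 1 RUVr factor, leaving out single mice gave 1 to 4 called members in TG and 1 to 4 in WT mice, with 253 to 336 called miRNAs in TG and 67 to 250 in WT mice. Each of 3-month TG mouse 6, 3-month WT mouse 2 (1 member each) and 6-month WT mice 4 and 5 (2 members each) lowered the count of members by over 1.5 times. Without the shallow libraries it was 1 member in TG and 1 in WT mice, with 247 miRNAs called in TG and 84 in WT mice, and without 3-month WT mice 1 and 2 it was 1 member and 104 miRNAs. In TG mice miR-17-5p then had a log2FC of 0.02 without the shallow libraries. The 45 correlated pairs became 1 with the axis removed.

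Signs near 0 turned. In TG mice miR-25-3p was at -0.03 (DESeq2 and its size factors), -0.04 (with 1 or 2 RUVr factors), -0.19 (total counts), -0.06 (no filter), -0.01 (joint fit), -0.11 (limma) and -0.07 (without the shallow libraries). In WT mice miR-19b-3p was at -0.01 (DESeq2), -0.28 (DESeq2 with 1 or 2 factors), -0.26 (edgeR with 1), -0.07 (total counts), -0.02 (no filter), -0.0029 (precursors summed), and -0.25 and -0.41 (limma with a pseudocount of 1 and 0.1). With limma miR-19a-3p was at -0.05 and -0.29 in WT mice. miR-92a-3p was at -0.03, -0.01 and -0.02 (DESeq2 with 1 and 2 factors and edgeR with 1), -0.22 (total counts), -0.17 (limma) and -0.18 (without the shallow libraries). miR-92b-3p was at -0.11 (total counts), -0.06 (limma) and -0.09 (3-month WT mice 1 and 2 left out or counted as TG). miR-25-3p was at -0.16, -0.1 and -0.03 (total counts, limma and without the shallow libraries), and miR-106b-5p at 0.14 (3-month WT mice 1 and 2 left out or counted as TG). With single mice left out the ranges in WT mice were -0.38 to 0.15 (miR-106b-5p), -0.12 to 0.32 (miR-19b-3p), -0.01 to 0.13 (miR-92a-3p) and -0.0035 to 0.18 (miR-92b-3p). In TG mice they were -0.31 to 0.06 (miR-19a-3p), -0.43 to 0.02 (miR-19b-3p), -0.32 to 0.02 (miR-92b-3p) and -0.04 to 0.09 (miR-25-3p). The causes were not tested. Depth limits miR-18a-5p and miR-19a-3p most.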
